A study of Mus musculus with 6 samples.

Results

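The circadian clock and output genes examined here are 10 genes of the daily transcriptional clock, chosen by name with earlier results of these data known: Per1, Per2, Per3, Dbp, Tef, Hlf, Nr1d1, Nr1d2, Clock and Npas2. Each gene measured was read from its probe set with a single gene symbol, and each of those genes had 1. Values were found for 9 of the 10 genes, out of 19938 genes with such a probe set, and the level of Npas2 was not analysed here. The values come from 6 one-colour arrays of RNA labelled as aorta from mice 6 weeks old. Of these, 3 arrays held RNA of Trail knockout mice, which lack the death ligand gene Tnfsf10 and came from Amgen, and 3 held RNA of wild-type mice. The strain is given as C57Bl6/J for all 6, and no treatment is given for either group. The labels give no hour of collection and do not say whether animals were pooled or whether a sample is 1 animal, so errors here measure only the spread between these arrays, which may be technical. The members were proposed with the difference between knockout and wild type in view, so those differences are given with their standard errors as a description and without a test.

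The clock is a feedback loop of transcription that runs through the day in nearly every tissue, blood vessels included. CLOCK or its relative NPAS2, paired with BMAL1 (the product of Arntl), binds E-box sequences and drives the Per and Cry genes, whose proteins then repress that pair. The same pair drives Dbp, Tef and Hlf, factors of the PAR bZIP family that act through D-box sequences, and Nr1d1 and Nr1d2, the REV-ERB repressors of Arntl, Clock and Npas2. Transcripts of the repressed arm therefore peak at another time of day than those of the driven arm.

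Stretches of 250 bases before an annotated gene start show where such sequences lie. The RefSeq promoter table (GRCm38.p6) held 9 of the 10 members, in 13 windows because Per1, Tef and Clock have several starts, and it had no entry for Per2. Motifs searched on both strands were the E-box CACGTG, the variant E-box CACGTT, the D-box core TATGTAA or TATGCAA, the ROR element core TAGGTCA or TGGGTCA, and the cyclic AMP response element core TGACGTC. At least 1 of them was found in 7 windows, of 5 members. The lines below are examples picked after the values were seen, from Per1 and Per3, which separated the groups on every array, and Tef, which did not. Hlf also separated the groups and is not printed, and Per1 and Tef both hold an E-box. The lines therefore set up no contrast of motifs by group order. Each is written 5′ to 3′ on the gene's own strand, with motif matches in capitals.
Per1, first start, chr11:69098699-69098948, plus strand: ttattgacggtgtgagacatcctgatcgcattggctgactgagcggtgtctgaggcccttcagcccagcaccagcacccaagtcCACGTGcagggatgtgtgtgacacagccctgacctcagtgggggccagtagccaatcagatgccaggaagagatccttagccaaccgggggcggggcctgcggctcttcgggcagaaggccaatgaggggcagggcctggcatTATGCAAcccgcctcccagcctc
Per1, second start, chr11:69099902-69100151, plus strand: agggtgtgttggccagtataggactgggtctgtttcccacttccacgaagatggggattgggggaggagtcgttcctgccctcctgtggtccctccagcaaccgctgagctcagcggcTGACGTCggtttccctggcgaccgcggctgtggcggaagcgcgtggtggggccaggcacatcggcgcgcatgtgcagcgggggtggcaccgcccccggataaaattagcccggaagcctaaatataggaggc
Per3, chr4:151044666-151044915, minus strand: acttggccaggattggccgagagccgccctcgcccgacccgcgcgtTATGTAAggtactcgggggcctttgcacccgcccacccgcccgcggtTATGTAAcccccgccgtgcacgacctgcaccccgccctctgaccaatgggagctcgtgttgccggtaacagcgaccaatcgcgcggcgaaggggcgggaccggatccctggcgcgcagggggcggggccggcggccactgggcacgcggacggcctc
Tef, first start, chr15:81802423-81802672, plus strand: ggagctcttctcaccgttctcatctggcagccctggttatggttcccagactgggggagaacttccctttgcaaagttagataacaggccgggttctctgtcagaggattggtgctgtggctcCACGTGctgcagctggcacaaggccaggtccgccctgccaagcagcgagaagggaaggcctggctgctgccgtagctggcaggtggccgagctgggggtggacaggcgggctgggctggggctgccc
The first Per1 window has an E-box 166 bases and a D-box core 23 bases before the start, and the second has a response element core 132 bases before it. Both Per1 windows, and part of the Per3 window, lie within the gene's annotated span, since other transcripts start further upstream. Per3 has 2 D-box cores, 204 and 157 bases before its start, and each of the 2 Tef windows has 1 E-box. Hlf has 1 response element core in 2 overlapping matches that end 2 bases before its start, and Nr1d1 has 1 variant E-box on the opposite strand. No match was found in the windows of Dbp, Nr1d2, Clock or Npas2, and no ROR element core in any window of a member. Over all 32851 windows of this length in the table, 6.02% hold the E-box, 3.85% the variant, 4.79% a D-box core, 5.38% an ROR element core and 2.78% the response element core. A match is a string of letters and not a measured binding site.

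Before the values are read, the tissue content of the arrays needs a description, as wild type 1 differed from the other 5. On wild type 1, the medians of 12 skeletal muscle and 12 squamous epithelium markers were 5.79 and 5.01 on the log2 scale, against 11.60 to 12.11 and 10.48 to 10.66 on the other 5 arrays. On the same array the medians of 10 brown fat and 11 white fat markers were 10.41 and 11.13, against 6.35 to 6.69 and 6.71 to 8.38. Pearson's r across annotated probe sets was at most 0.907 between wild type 1 and any other array and at least 0.974 among the other 5. The medians of 12 endothelial and 9 nerve markers were 8.75 and 8.22 there, against 7.15 to 7.92 and 6.06 to 6.23. Vascular smooth muscle markers, which define the aortic wall, had a median of 9.40 there and of 9.81 to 10.61 elsewhere, with 2 of 12 genes over 2-fold below all other arrays, while smooth muscle actin (Acta2) lay between 12.27 and 12.63 on all 6. The deleted gene, Tnfsf10, gave 8.42 on wild type 1, 4.90 and 4.85 on wild type 2 and 3, and 4.09 to 5.02 on the knockout arrays, so it did not set wild type 2 and 3 apart from the knockouts. Stomach genes stood out on knockout 2 (list median 12.11, and 4.81 to 6.79 elsewhere), lung genes on knockout 1 (7.11, and 5.08 to 5.51 elsewhere). With skeletal muscle and squamous epithelium markers this high, the other 5 arrays are not a set of aortic wall alone. Leaving out wild type 1 is therefore not a cleaner aortic comparison. The part that tissue content has in the clock values was not tested, and the difference of each member below is given with and without wild type 1.

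The 3 Period genes, whose proteins repress the clock's driving pair, were lower on every knockout array than on every wild-type array. Per1, which also responds quickly to outside signals, gave log2 signals of 6.42, 6.07 and 6.23 on knockout 1, 2 and 3 and of 6.88, 6.92 and 6.85 on wild type 1, 2 and 3. The wild-type values lay within 0.076 of each other, the highest knockout value was 0.43 below the lowest of them, and wild type 1 was not set apart. The mean was 6.24 ± 0.17 (SD, n = 3) in the knockouts and 6.88 ± 0.04 (SD, n = 3) in wild type. That is a difference, knockout minus wild type, of -0.64 (SE 0.12, 1.56-fold lower), and without wild type 1 it was -0.65 (SE 0.14). Of the 14046 probe sets tested, 2.25% had a difference further below 0 than Per1 on 6 arrays, and 0.171% did without wild type 1. As these are pieces of whole tissue, fewer cells of a type and less RNA per cell cannot be told apart.

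Per2 gave 5.85, 5.74 and 5.82 on the knockout arrays and 6.44, 5.93 and 6.20 on wild type 1, 2 and 3. The groups were 0.078 apart at their nearest, and wild type 1 was the highest array. The difference was -0.39 (SE 0.15), and -0.26 (SE 0.14) without wild type 1. Per2 was also the dimmest member, at the 42.4th percentile of mean signal among annotated probe sets, just inside the part of the array that was tested. Per3, a Period gene that is dispensable for the central rhythm, gave 6.43, 6.21 and 6.22 on the knockout arrays and 7.15, 6.50 and 6.65 on the wild-type arrays. Here knockout 1 and wild type 2 were only 0.070 apart. The difference of Per3 was -0.48 (SE 0.19), and -0.28 (SE 0.13) without wild type 1, whose value was the highest.

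**Figure D1:**
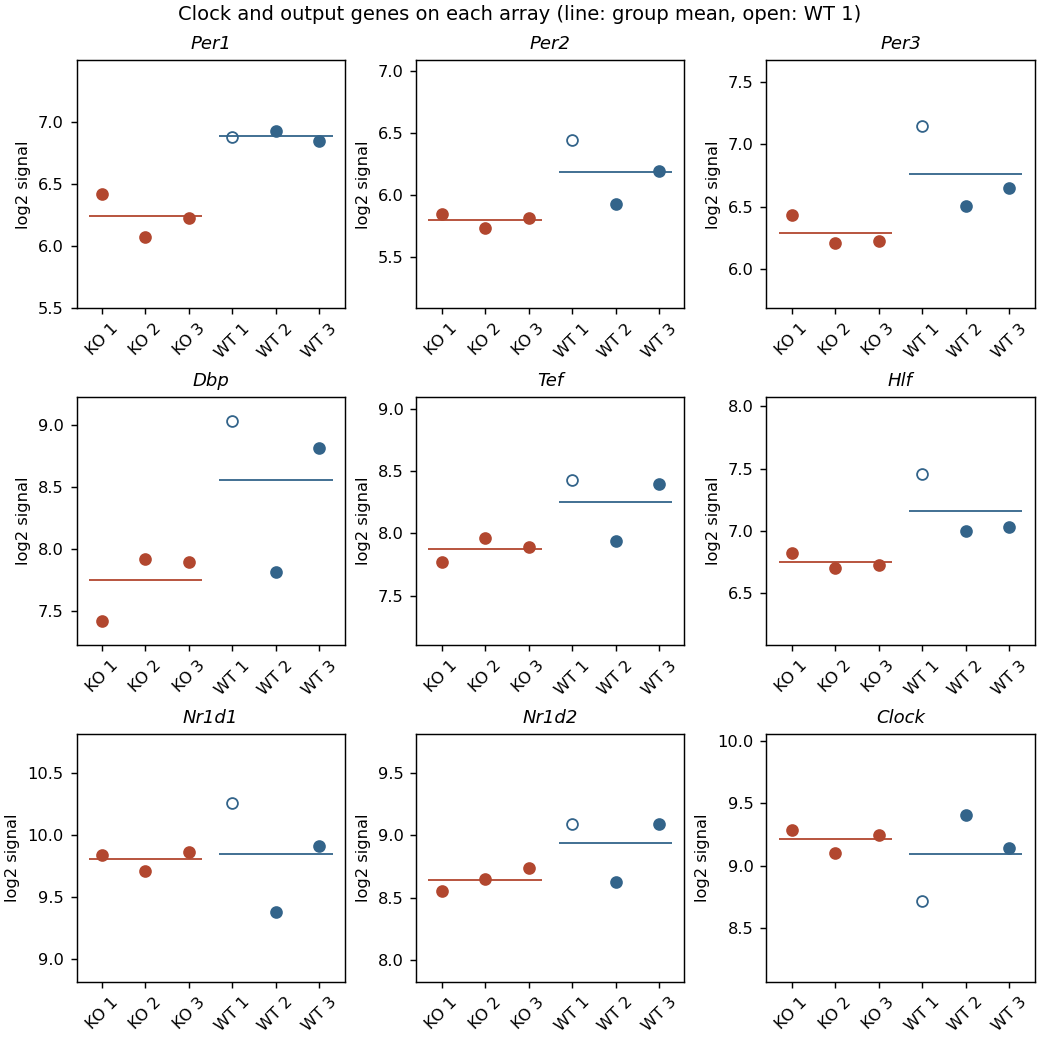
Log2 signal (vertical axis, 2 units in each panel) of the 9 measured members on the 3 knockout (KO, red) and 3 wild-type (WT, blue) arrays, with lines at group means and wild type 1 drawn open. The groups do not overlap for Per1, Per2, Per3 and Hlf, and wild type 2 sits beside the knockout arrays for Dbp, Tef and Nr1d2.

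The PAR bZIP genes, output factors that pass the rhythm on to enzymes and transporters, had lower knockout means too, but only Hlf kept the groups apart. Dbp, the member of widest daily swing in most tissues, gave 7.42, 7.93 and 7.90 on the knockout arrays and 9.03, 7.82 and 8.82 on the wild-type arrays. Wild type 2 lay between knockout 1 and the other two knockouts, while wild type 1 and 3 were high. The difference was -0.81 (SE 0.35, 1.75-fold lower; means 7.75 ± 0.28 and 8.56 ± 0.65, SD, n = 3 each), and -0.57 (SE 0.30) without wild type 1. With wild type 1 and 3 both left out, wild type 2 alone gave a Dbp difference of -0.07.

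Tef gave 7.77, 7.96 and 7.89 on the knockout arrays and 8.43, 7.94 and 8.40 on the wild-type arrays, the same pattern as Dbp. Its difference was -0.38 (SE 0.17), and -0.29 (SE 0.16) without wild type 1. Wild type 2 was again inside the knockout range, so the groups overlapped. Hlf gave 6.82, 6.70 and 6.72 on the knockout arrays and 7.45, 7.00 and 7.03 on the wild-type arrays. Its groups stood 0.18 apart, wild type 2 and 3 differed by only 0.029, and wild type 1 was highest. The Hlf difference was -0.41 (SE 0.15), and -0.27 (SE 0.11) without wild type 1.

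The REV-ERB genes differed from each other. Nr1d2 gave 8.55, 8.65 and 8.73 on the knockout arrays and 9.09, 8.63 and 9.09 on the wild-type arrays, with wild type 2 once more among the knockouts. Its difference was -0.29 (SE 0.17), and -0.21 (SE 0.16) without wild type 1. Nr1d1 gave 9.84, 9.71 and 9.87 on the knockout arrays and 10.26, 9.38 and 9.92 on the wild-type arrays. For this gene the knockout values lay in the middle of the wild-type range, with wild type 2 lowest and wild type 1 highest of all arrays. The Nr1d1 difference was -0.04 (SE 0.24), and it changed sign to 0.16 (SE 0.17) without wild type 1.

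Clock, the member of the driving pair that was measured, gave 9.29, 9.10 and 9.24 on the knockout arrays and 8.72, 9.41 and 9.14 on the wild-type arrays. Wild type 1 was the lowest and wild type 2 the highest of all arrays, the reverse of Nr1d1. The difference was 0.12 (SE 0.20), with a sign change to -0.06 (SE 0.13) without wild type 1.

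**Figure D2:**
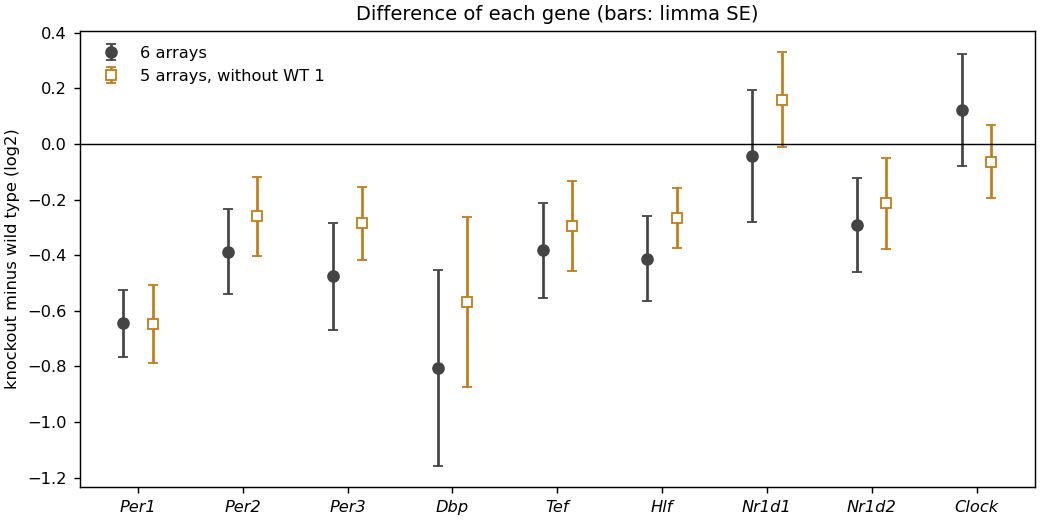
Difference of each measured member, knockout minus wild type (log2), with the standard error of the limma fit, on 6 arrays (filled) and on 5 without wild type 1 (open squares). Per1 has nearly the same value in both, at -0.64 and -0.65, while Nr1d1 and Clock change sign.

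Over the 9 measured members, all of which passed the filter on dim probe sets, 8 had a lower mean in the knockouts, against 56.5% of all probe sets tested. The groups did not overlap, with the knockouts lower, for 4 members (Per1, Per2, Per3 and Hlf), against 4.29% of all probe sets. These were also the 4 dimmest members, at the 42.4th to 59.4th percentile of mean signal, while the rest lay at the 78.7th to 94.6th. The opposite order, all knockout arrays higher, occurred for 0 members, against 1.31%. The median difference was -0.39 over the members and -0.03 over all probe sets tested. Without wild type 1 the same counts were 8 members lower against 58.4%, the same 4 members not overlapping against 8.45%, and 0 in the opposite order against 4.13%, with medians of -0.27 and -0.03. These differences chose the members, so nothing is read from the counts. By limma with Benjamini-Hochberg adjustment, 0 of the 14046 probe sets passed at 0.05 on 6 arrays (0%) and 0 on 5 (0%). An unadjusted p under 0.05 was found for 89 (0.634%) and 217 (1.54%), and the unmoderated test also passed 0, with 184 (1.31%) and 264 (1.88%) under 0.05.

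Wild type 2 was the array on which the count turned. Without it, the groups did not overlap for 8 of 9 members, all except Clock, against 8.14% of all probe sets. With both wild type 1 and 2 left out, wild type 3 alone lay above all knockouts for 8 members, against 17.6%. With wild type 1 and 3 left out, wild type 2 lay above all knockouts for 5, against 32%, and the median difference was -0.13. The standard deviation was smaller among the knockout arrays than in wild type for 8 of 9 members, all except Per1, against 69.5% of all probe sets. Without wild type 1, the span of the 3 knockout arrays was below that of wild type 2 and 3 for 6 of 9, all except Per1, Per3 and Hlf, against 21.6%. For Nr1d1 the knockout arrays spanned 0.16 and the wild-type arrays 0.88, or 0.54 without wild type 1, and for Dbp the spans were 0.50 and 1.21, or 1.00 without it. Wild type 1 had the highest value for 7 of 9 members, against 37.9% of all probe sets.

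The spread within wild type was followed on arrays 2 and 3, which both carried the skeletal muscle and squamous epithelium markers that were low on wild type 1. This comparison, and its limit of 1.3-fold, were chosen after the values were seen, and with 1 array on each side it has no test. On wild type 3, 4 of 9 members were over 1.3-fold above wild type 2 (Dbp, Tef, Nr1d1 and Nr1d2) and 0 were that far below, against 3.41% and 5.45% of all probe sets, or 8.86% in either direction. Dbp differed by 1.00, or 2.00-fold, Nr1d1 by 0.54, Nr1d2 by 0.46 and Tef by 0.46 on the log2 scale. A larger difference in either direction was seen for 0.249% of probe sets in the case of Dbp and for 2.65% in that of Nr1d1. Per1 differed by -0.08, Hlf by 0.03, Per3 by 0.14, Per2 by 0.27 and Clock by -0.27, all within the limit. The 4 genes that differed between these arrays thus include Dbp, Tef and Nr1d2, for which wild type 2 lay inside the knockout range. Marker lists also differed between the arrays: the stomach list had medians of 4.81 on wild type 2 and 6.79 on wild type 3, and the white fat list 6.71 and 7.46, and their part was not tested.

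**Figure D3:**
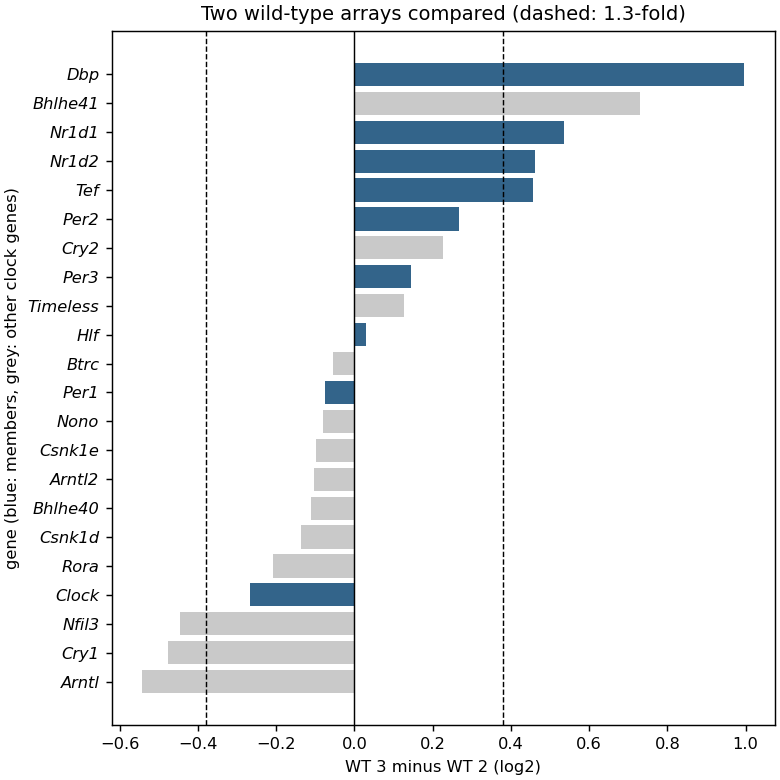
Log2 signal on wild type 3 minus wild type 2 for the 9 measured members (blue) and 13 other clock genes (grey), with dashed lines at 1.3-fold. Dbp is the highest bar at 1.00, and Arntl, Cry1 and Nfil3 lie past the limit on the other side.

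The other genes of the loop were taken from a list of 18, of which 16 had a probe set of their own and 13 passed the filter. None of the 13 passed in limma on 6 or 5 arrays, the lowest adjusted p being 0.921 and 0.997. An unadjusted limma p under 0.05 was found for 0 and 1 of them (Cry2 on 5 arrays), against 0.634% and 1.54% of all probe sets. The unmoderated test passed 0 on 6 arrays. Arntl, which encodes BMAL1 and is repressed by the REV-ERB proteins, gave 8.14, 7.75 and 8.18 on the knockout arrays and 6.76, 8.05 and 7.51 on the wild-type arrays. Its order within wild type was the reverse of that of Dbp. The difference of Arntl was 0.59 (SE 0.34, limma adjusted p = 0.921), and 0.25 (SE 0.21, adjusted p = 0.997) without wild type 1.

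Cry1, a repressor that acts late in the cycle, gave 7.20, 6.89 and 7.26 on the knockout arrays and 6.29, 7.53 and 7.05 on the wild-type arrays. Like Arntl it was lowest on wild type 1 and lower on wild type 3 than on wild type 2, by 0.48, against a difference of 0.54 for Arntl. Nfil3, a repressor at D-box sequences, was 0.45 lower on wild type 3 than on wild type 2, and Bhlhe41, a repressor at E-box sequences, was 0.73 higher. Of the 13 genes, 3 were over 1.3-fold lower and 1 higher on wild type 3, against 5.45% and 3.41% of all probe sets.

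Among the genes of lowest p in this list, Cry2, the partner cryptochrome, differed by -0.29 (SE 0.16), and by -0.41 (SE 0.13) without wild type 1, where its groups no longer overlapped. Bhlhe41 differed by -0.43 (SE 0.25), its relative Bhlhe40 by -0.32 (SE 0.19), and Btrc, a ubiquitin ligase subunit that marks PER proteins for breakdown, by -0.23 (SE 0.14). Each of these had a limma adjusted p of 0.921 on 6 arrays and 0.997 on 5. The groups did not overlap for 0 of the 13 genes on 6 arrays, against 4.29% lower and 1.31% higher of all probe sets. Without wild type 1 they did not for 2 lower (Cry2 and Arntl2) and 0 higher, against 8.45% and 4.13%. Arntl2 differed by -0.06 (SE 0.11), and by -0.12 (SE 0.12) without wild type 1 (limma adjusted p = 0.924 and 0.997). Over the 13 genes the median difference was 0.02 on 6 arrays, with 6 of 13 lower in the knockouts against 56.5% of all probe sets, and -0.12 on 5, with 10 of 13 lower against 58.4%. As the list was chosen with earlier results of these data known, nothing is read from its counts. Rorb, Ciart and Fbxl21 were too dim to be tested.

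**Figure D4:**
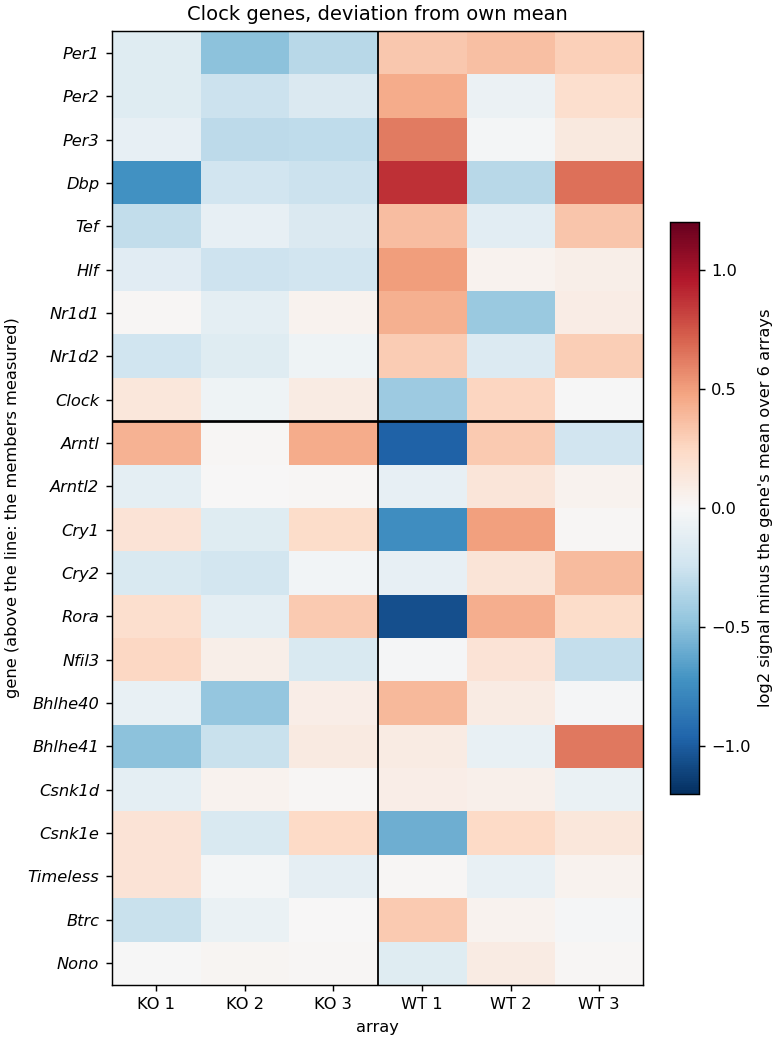
Log2 signal of 9 measured members (above the black line) and 13 other clock genes (below it) on each array, as the deviation from the gene's own mean over 6 arrays (colour scale). On wild type 1 Dbp, Per3, Hlf and Nr1d1 are high while Arntl, Cry1, Rora and the kinase gene Csnk1e are low. Bhlhe40 and Btrc, below the line, are also highest on that array. The kinase gene Csnk1d and the RNA-binding gene Nono vary little on any array.

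Genes downstream of the clock were taken from a second list of 22, of which 17 had a probe set of their own and all 17 were tested. None passed in limma on 6 or 5 arrays (lowest adjusted p = 0.921 and 0.997) or in the unmoderated test on 6. An unadjusted limma p under 0.05 was found for 2 on 6 arrays (Rbm3 and Avpr1a), against 0.634% of all probe sets. On 5 arrays it was found for 2 (Rbm3 and Tsc22d3), against 1.54%. The median difference was -0.14, with 13 of 17 lower in the knockouts against 56.5% of all probe sets, and -0.18 with 13 of 17 lower against 58.4% without wild type 1. The groups did not overlap for 3 genes lower and 1 higher in the knockouts, against 4.29% and 1.31% of all probe sets, and without wild type 1 for 5 and 1, against 8.45% and 4.13%. This list too was chosen with earlier results of these data known, so nothing is read from its counts. Rbm3, a cold-inducible RNA-binding protein whose level follows the daily temperature rhythm, gave 10.44, 10.18 and 10.45 on the knockout arrays and 10.69, 10.93 and 10.72 on the wild-type arrays. As for Per1, wild type 2 was the highest array and wild type 1 did not stand apart. The difference of Rbm3 was -0.43 (SE 0.13, limma adjusted p = 0.921), and -0.47 (SE 0.13, adjusted p = 0.997) without wild type 1. Rbm3 has 3 probe sets of its own, and these values are from the brightest. The other ones differed by -0.45 (SE 0.14) and -0.43 (SE 0.13) on 6 arrays.

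Coq10b, a gene of coenzyme Q function, differed by -0.40 (SE 0.18), and Tspan4, a tetraspanin, by -0.65 (SE 0.41), which became -0.18 without wild type 1. In the other direction Avpr1a, a vasopressin receptor of smooth muscle, differed by 0.73 (SE 0.28), and by 0.49 (SE 0.21) without wild type 1. Nampt, which makes NAD in a daily rhythm, differed by -0.71 (SE 0.36) with overlapping groups, and by -0.31 (SE 0.15) without wild type 1. The limma adjusted p of these 4 genes was 0.921 on 6 arrays and 0.997 on 5. Without wild type 1, the glucocorticoid target Tsc22d3 differed by -0.42 (SE 0.13, limma adjusted p = 0.997), after -0.09 (SE 0.30) on 6 arrays, where wild type 1 was its lowest array. Cirbp differed by -0.11 (SE 0.14, limma adjusted p = 0.921) on 6 arrays. Its groups no longer overlapped without wild type 1, at a difference of -0.22 (SE 0.12, limma adjusted p = 0.997).

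Among the other genes tested, those with the profile nearest to a member were found by the mean absolute distance between log2 profiles over 6 arrays, each centred on its own mean. Nearest to Per1 were Tppp (distance 0.065), Spsb1 (0.102), a probe set of Rbm3 other than the brightest (0.107) and Rps6ka5 (0.118). Tppp gave 7.69, 7.17 and 7.43 on the knockout arrays and 8.03, 7.94 and 7.96 on the wild-type arrays, so that knockout 2 was lowest and the wild-type arrays were close together, as for Per1. That likeness follows from the choice of the nearest profile. Nearest to Dbp were Map1b (0.193), Tmem229b (0.200), Plod2 (0.228) and Cdip1 (0.230), all further from it than the neighbours of Per1 were from Per1. The distance is not scaled to a gene's spread. Dbp ranged from -0.73 to 0.88 about its own mean and Per1 from -0.49 to 0.36. Nearest to Nr1d1 were Mras (0.052), Srrd (0.060), Osbpl6 (0.060) and the fat and muscle carbonic anhydrase gene Car3 (0.062). Nearest to Clock were Gpsm1 (0.019), Cerk (0.022), Obi1 (0.022) and Mycl (0.027). No further clock gene was among these 16.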

How the data were processed

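RNA of 3 knockout and 3 wild-type samples was measured on 1 array each. The deposited table holds log2 values for 35399 probe sets, with the log base read from their range of 1.55 to 13.96. The submitters' processing notes name MAS5, while the sources used here do not give how signals were summarised and scaled. Values were used as deposited, which could affect small differences of dim genes such as Per2. The platform annotation lists 23410 probe sets, 21789 with 1 gene symbol and 1621 with several, and none was named from several. Annotated probe sets were compared between the groups with limma 3.58.1 under R 4.3.3 (trended variance, p-values adjusted by Benjamini-Hochberg, threshold 0.05), after the dimmest 40% had been left out by their mean on 6 arrays, so that 14046 were tested. The code was tested on simulated data. Members and lists were chosen with earlier results of these data known. Named genes are the members, the 5 of lowest p in each list, list genes whose groups do not overlap, and the 4 nearest profiles to Per1, Dbp, Nr1d1 and Clock. Tsc22d3, Cry1, Nfil3, Rora, Csnk1d, Csnk1e and Nono were named after their values were seen. Alternatives were centring, quantile normalization, a pseudocount of 64, other filters and forms of the test, a replicate block, and leaving out arrays. Same-numbered samples had deviations from their group means correlated at 0.095, -0.23 and 0.20, so the numbers were not taken to pair them.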

Additional observations from a re-analysis of the deposited data

How the results depend on the processing

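With 6 arrays and no detection calls, small differences of dim genes are the least certain. The counts of passing probe sets, other clock genes and clock-linked output genes were 0 in each of 22 alternatives, and the lowest limma adjusted p of any probe set in any of them was 0.257. A fit with the replicate number as a block, which the labels allow but do not explain, also gave 0 passing probe sets. The count of members lower in the knockouts was 7 or 8 in 14 alternatives. The count with groups not overlapping ranged from 4 to 8 when arrays were left out, and was 8 without wild-type replicate 2, with or without wild-type replicate 1. Fewer arrays make it easier for groups not to overlap. The median difference of the members ranged from -0.517 without wild-type replicate 2 to -0.127 without wild-type replicates 1 and 3, where the member differences rest on 1 wild-type array. Per1 stayed between -0.735 and -0.382 over 16 alternatives, the value nearest 0 coming with a pseudocount of 64, and Dbp between -1.17 and -0.070. Nr1d1 was below 0 in 10 of 16, Nr1d2 in 15 and Clock in 5. Averaging several probe sets, or taking a second one, could not be done because each member has 1. A filter that leaves out the lowest 60% removes Per1, Per2, Per3 and Hlf from the test.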
